A study of Mus musculus with 14 samples.

Results

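Mast cells are tissue-resident granulocytes, and the 8 genes described here encode parts of the machinery by which they sense and answer stimuli: the 3 chains of the high-affinity IgE receptor (Fcer1a, Ms4a2 and Fcer1g), the IL-33 receptor Il1rl1, the enzymes Cpa3, Hdc and Hpgds, and the transcription factor Mitf. They were chosen by gene name, as 8 of the 53465 genes in a count table of polyA RNA. Of the 8, Ms4a2, Il1rl1, Cpa3 and Hdc were among the 10791 genes with enough reads to be tested. Fcer1a, Fcer1g, Hpgds and Mitf had too few reads and are given as counts.

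The cells were KL974, a mouse line labelled as acute myeloid leukaemia. Every library came from this line and so carried the same genotype, a Trp53 R172H allele with hairpins against Mll3 and Nf1, and the same medium with IL3, IL6 and SCF, the ligand of the mast cell receptor Kit. Before induction the cells had received lentiviral vectors with a doxycycline-inducible hairpin linked to blue fluorescent protein (BFP), and were then sorted into BFPplus cells, which had switched the hairpin on, and BFPmin cells, which had not. There were 7 groups of 2 libraries. They were shOgdh2081 BFPplus and shOgdh346 BFPplus cells after 4 days of doxycycline, both aimed at Ogdh (a subunit of the 2-oxoglutarate dehydrogenase complex of the citric acid cycle), and 5 groups with the control hairpin shRen713. The control groups were untreated cells at day 0, BFPplus and BFPmin cells at day 2, and BFPplus and BFPmin cells at day 4. The labels do not name a sort for day 0, so any comparison with day 0 joins time, doxycycline and sorting, which cannot be told apart. Because the libraries are bulk RNA, more cells of a type and more RNA per cell cannot be told apart either. The labels name replicates without saying that they were separate cultures, so p-values measure only the spread between these libraries.

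In mast cells the alpha chain of the IgE receptor binds IgE and the beta chain (Ms4a2) amplifies the signal. The gamma chain (Fcer1g), which other Fc receptors share, passes it to the kinase Syk. Il1rl1 binds IL-33, a cytokine that damaged tissue releases, and signals with Il1rap through Myd88. Hdc makes histamine from histidine, Cpa3 is the granule carboxypeptidase and Hpgds makes prostaglandin D2, while MITF and the GATA factors drive many mast cell genes. Basophils also express several of these genes, so none of the 8 alone marks a mast cell.

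GATA1 and GATA2 bind short sequences built around the letters GATA. The 250 bases upstream of the gene start are shown for Ms4a2, Il1rl1, Cpa3, Hdc and Fcer1a, the members whose levels the results turn on, from the RefSeq promoter table of GRCm38.p6. Each is written 5′ to 3′ on the gene's own strand, and capitals mark every match, on either strand, to GATA with an A or T before it and an A or G after it.
Ms4a2, chr19:11623720-11623969, minus strand: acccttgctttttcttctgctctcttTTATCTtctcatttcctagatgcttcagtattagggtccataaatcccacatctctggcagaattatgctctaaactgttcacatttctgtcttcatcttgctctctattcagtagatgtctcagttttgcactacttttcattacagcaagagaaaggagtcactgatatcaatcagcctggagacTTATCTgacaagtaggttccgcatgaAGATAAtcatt
Il1rl1, upstream start, chr1:40429320-40429569, plus strand: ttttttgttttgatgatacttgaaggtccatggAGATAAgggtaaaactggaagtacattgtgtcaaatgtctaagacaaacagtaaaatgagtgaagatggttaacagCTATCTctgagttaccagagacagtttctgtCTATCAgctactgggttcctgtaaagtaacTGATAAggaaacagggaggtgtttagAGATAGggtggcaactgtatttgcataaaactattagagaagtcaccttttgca
Cpa3, chr3:20242182-20242431, minus strand: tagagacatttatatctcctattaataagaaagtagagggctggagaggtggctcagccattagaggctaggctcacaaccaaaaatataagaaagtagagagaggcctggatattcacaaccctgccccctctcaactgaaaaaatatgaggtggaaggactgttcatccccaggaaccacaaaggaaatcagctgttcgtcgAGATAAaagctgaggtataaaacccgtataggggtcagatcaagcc
Hdc, chr2:126618679-126618928, minus strand: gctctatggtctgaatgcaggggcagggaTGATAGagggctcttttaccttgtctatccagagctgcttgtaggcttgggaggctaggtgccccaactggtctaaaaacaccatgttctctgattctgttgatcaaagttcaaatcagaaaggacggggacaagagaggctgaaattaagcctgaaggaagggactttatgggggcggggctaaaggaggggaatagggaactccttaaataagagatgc
Fcer1a, chr1:173227230-173227479, minus strand: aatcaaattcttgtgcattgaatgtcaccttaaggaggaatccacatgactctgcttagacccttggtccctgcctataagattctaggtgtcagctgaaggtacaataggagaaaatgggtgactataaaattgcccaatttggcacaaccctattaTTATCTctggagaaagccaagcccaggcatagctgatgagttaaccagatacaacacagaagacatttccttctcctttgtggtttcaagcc

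The Il1rl1 window held 5 matches and the Ms4a2 window 3, at positions -224, -37 and -11 counted back from the gene start. The Cpa3, Hdc and Fcer1a windows held 1 each, at -46, -221 and -92. Of 32851 such windows of 27025 genes in the table, 26.5% held at least 1 match, 1.35% at least 3 and 0.0426% at least 5. All 8 members had a window there. Il1rl1 also has a downstream start with 1 match, and Mitf had 3 windows with 0, 1 and 2 matches. Fcer1g and Hpgds had no match in the window read. The Hdc window lies inside the span that the count table gives the gene, outside its annotated exons. A match is a stretch of letters, and binding was not measured.

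Totals ranged between 913482 and 10271698 counts per library. The deepest library was a control BFPmin replicate at day 4, and the shallowest was shOgdh2081 replicate 1. Ogdh, the check of the labels, had 51.9 CPM with shOgdh2081 and 60.8 CPM with shOgdh346, against 257 CPM in control BFPplus cells at day 4 (log2 fold change -2.19 ± 0.09, SE, adjusted p = 1.63e-30). CPM here is the count scaled to the library's reads in tested genes and its TMM factor, and adjusted p-values come from edgeR's quasi-likelihood test with Benjamini-Hochberg adjustment over all 10791 genes, with 0.05 as the threshold. An exact permutation test of 2 libraries against 2 could not go below p = 0.333. This is the limit for single groups, and the comparison that pools both hairpins has more libraries and another limit.

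Across the 14 libraries the 8 genes fell into abundant and barely detected members. Per kilobase of the length that the count table gives each gene, Hdc averaged 50.2 RPKM, Il1rl1 33.0 RPKM and Ms4a2 21.5 RPKM. Cpa3 averaged 1.62 RPKM, Fcer1a 0.498 RPKM and Fcer1g 0.184 RPKM. Hpgds averaged 0.0586 RPKM and Mitf 0.0105 RPKM, resting on 15 and 3 reads in all libraries together. The beta chain of the IgE receptor was thus abundant while its alpha and gamma chains were near the limit of detection.

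**Figure D1:**
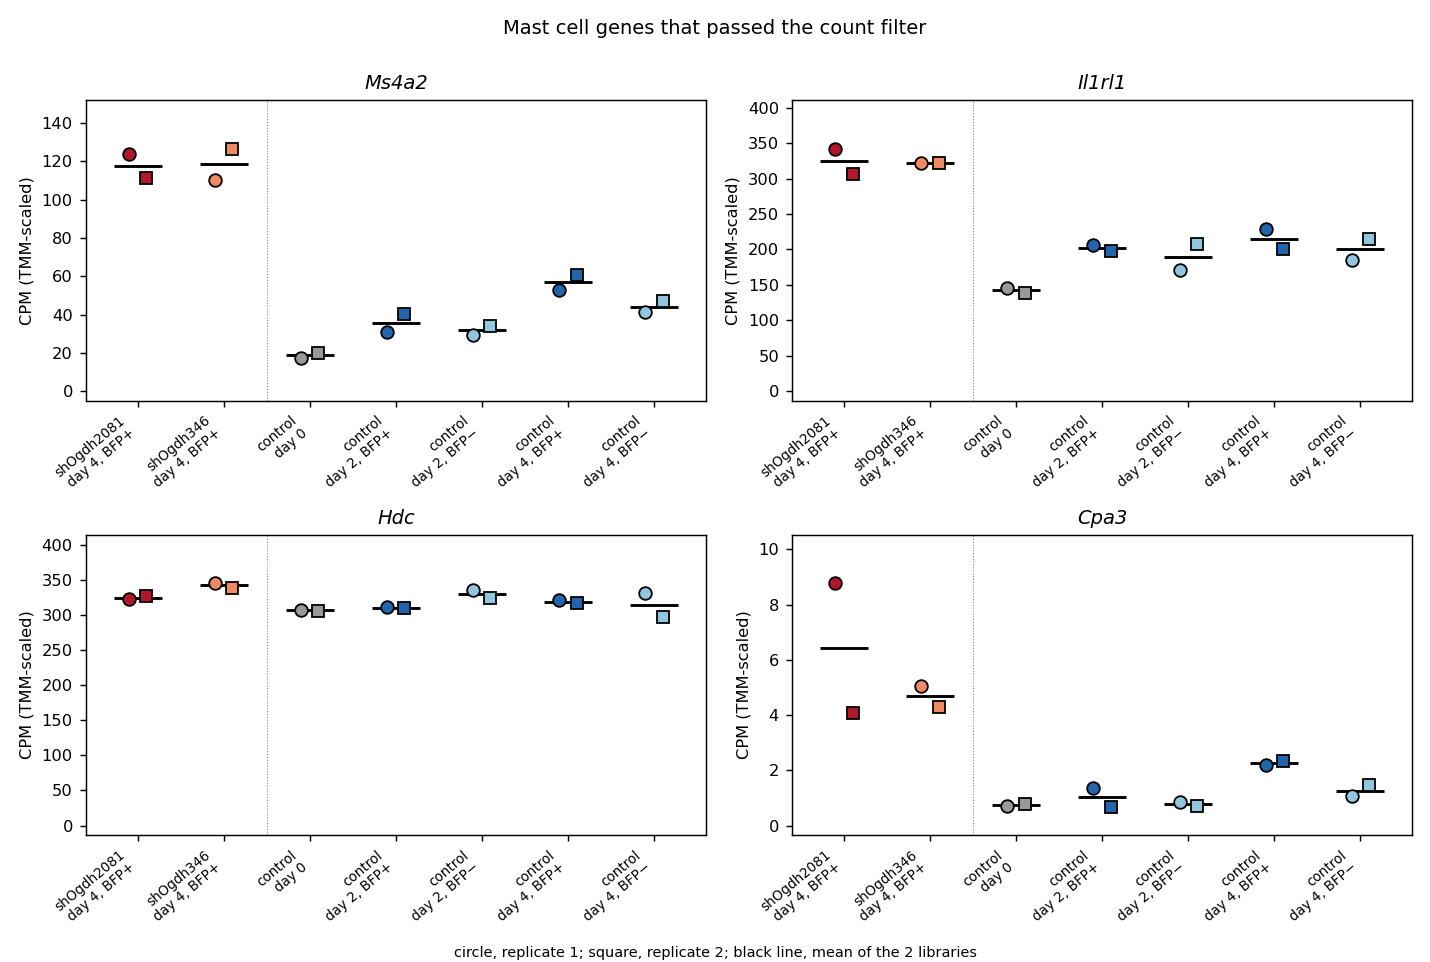
TMM-scaled CPM of Ms4a2, Il1rl1, Hdc and Cpa3 in each of the 14 libraries, by group; each y axis runs from 0, points are libraries and the black line is the mean of 2. The 4 Ogdh hairpin libraries lie above all 10 control libraries for Ms4a2, Il1rl1 and Cpa3, while the groups of Hdc lie within 298 and 345 CPM. Cpa3 passed the read filter only through the hairpin libraries, and the share of all tested genes that separate in this way was not computed.

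With Ogdh knocked down, the beta chain and the IL-33 receptor rose, and histidine decarboxylase did not pass the test. In this comparison of both hairpins with control BFPplus cells at day 4, 2 of the 8 members were called higher, where 7.72% of all tested genes were. Cpa3 reached the read filter only through the Ogdh hairpin libraries, where it is high. Its knockdown values are therefore a description with no test, and no count over the 4 tested members is read as a result.

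Ms4a2 had 124 and 111 CPM in the shOgdh2081 libraries and 110 and 126.7 CPM in the shOgdh346 libraries, against 52.9 and 60.6 CPM in control BFPplus cells at day 4. The lowest knockdown library was above the highest control one, and the ranges of the 2 hairpins overlapped. For this and the other members, the share of all tested genes whose libraries separate in this way was not computed. Its log2 fold change was 1.03 ± 0.11 (SE, adjusted p = 5.95e-11), a fold of 2.04. Tested separately, shOgdh2081 gave 1.03 ± 0.12 (adjusted p = 8.75e-09) and shOgdh346 gave 1.03 ± 0.12 (adjusted p = 2.98e-09).

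Il1rl1 had 342 and 307 CPM in the shOgdh2081 libraries and 322 and 322 CPM in the shOgdh346 libraries, against 229 and 201 CPM in control BFPplus cells at day 4. Here too the knockdown and control libraries did not overlap. The log2 fold change was 0.57 ± 0.08 (adjusted p = 1.96e-07), a fold of 1.48. It was 0.56 ± 0.09 for shOgdh2081 (adjusted p = 1.17e-05) and 0.58 ± 0.09 for shOgdh346 (adjusted p = 3.22e-06). Il1rl1 makes a membrane receptor and a soluble decoy, and counts per gene do not separate them.

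Hdc had 322 and 327 CPM in the shOgdh2081 libraries and 345 and 339 CPM in the shOgdh346 libraries, against 321 and 317 CPM in control BFPplus cells at day 4. The knockdown libraries were all above the control ones, by a margin within the test's error: the log2 fold change was 0.07 ± 0.07 (adjusted p = 0.576), with a 95% interval of -0.07 to 0.21. A change in Hdc of the size seen in Il1rl1 lies outside this interval.

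Cpa3 rested on few reads. It had 8 and 19 reads in the shOgdh2081 libraries (8.77 and 4.08 CPM) and 29 and 5 reads in the shOgdh346 libraries (5.07 and 4.28 CPM), against 7 and 5 reads in control BFPplus cells at day 4 (2.19 and 2.33 CPM). The groups did not overlap in CPM, and the fitted log2 fold change was 1.11 ± 0.44 (SE). Because Cpa3 passed the read filter only through the hairpin libraries, neither of these is a test of a change.

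Per hairpin, 2 of the 8 members were called higher with shOgdh2081, against 6.02% of tested genes, and the same number with shOgdh346, against 5.58%. These were Ms4a2 and Il1rl1 each time, and the 2 comparisons share their control libraries. Set against each other, shOgdh2081 and shOgdh346 differed in 0.0834% of tested genes and in no tested member. The difference, shOgdh2081 minus shOgdh346, was -0.00 for Ms4a2 (95% interval -0.23 to 0.22), -0.01 for Il1rl1 (-0.19 to 0.16) and -0.08 for Hdc (-0.24 to 0.09). For Cpa3 it was -0.01 with the wide interval of -0.79 to 0.78.

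The uninduced control cells give a second reference with the same knockdown libraries. Control BFPmin cells at day 4 had 41.5 and 46.9 CPM of Ms4a2, 185 and 215 CPM of Il1rl1 and 331 and 298 CPM of Hdc. Against them, Ms4a2 and Il1rl1 were called higher in the knockdown libraries, where 10.5% of tested genes were. Ms4a2 was higher by 1.35 ± 0.10 (log2, adjusted p = 4.35e-18) and Il1rl1 by 0.67 ± 0.07 (adjusted p = 1.98e-10). Cpa3, with 4 and 15 reads in BFPmin cells (1.08 and 1.45 CPM), had a fitted difference of 1.83 ± 0.37, again a description, and of 1.16 after all libraries were thinned to the depth of the shallowest. Hdc again did not pass (0.09 ± 0.07, adjusted p = 0.33).

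Within the control hairpin, no member passed the test between induced and uninduced cells. BFPplus against BFPmin cells gave no called member at day 4, where 0.0741% of tested genes were called, and none at day 2, where 6.23% were. For Ms4a2 the day 4 difference was 0.32 ± 0.12 (unadjusted p = 0.0122, adjusted p = 0.943), with 52.9 and 60.6 CPM in BFPplus cells against 41.5 and 46.9 CPM in BFPmin cells. At day 2 it was 0.08 ± 0.17, with 30.6 and 40.2 CPM in BFPplus cells against 29.1 and 34.3 CPM in BFPmin cells. For Il1rl1 the differences were 0.10 ± 0.09 at day 4 and 0.08 ± 0.10 at day 2.

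**Figure D2:**
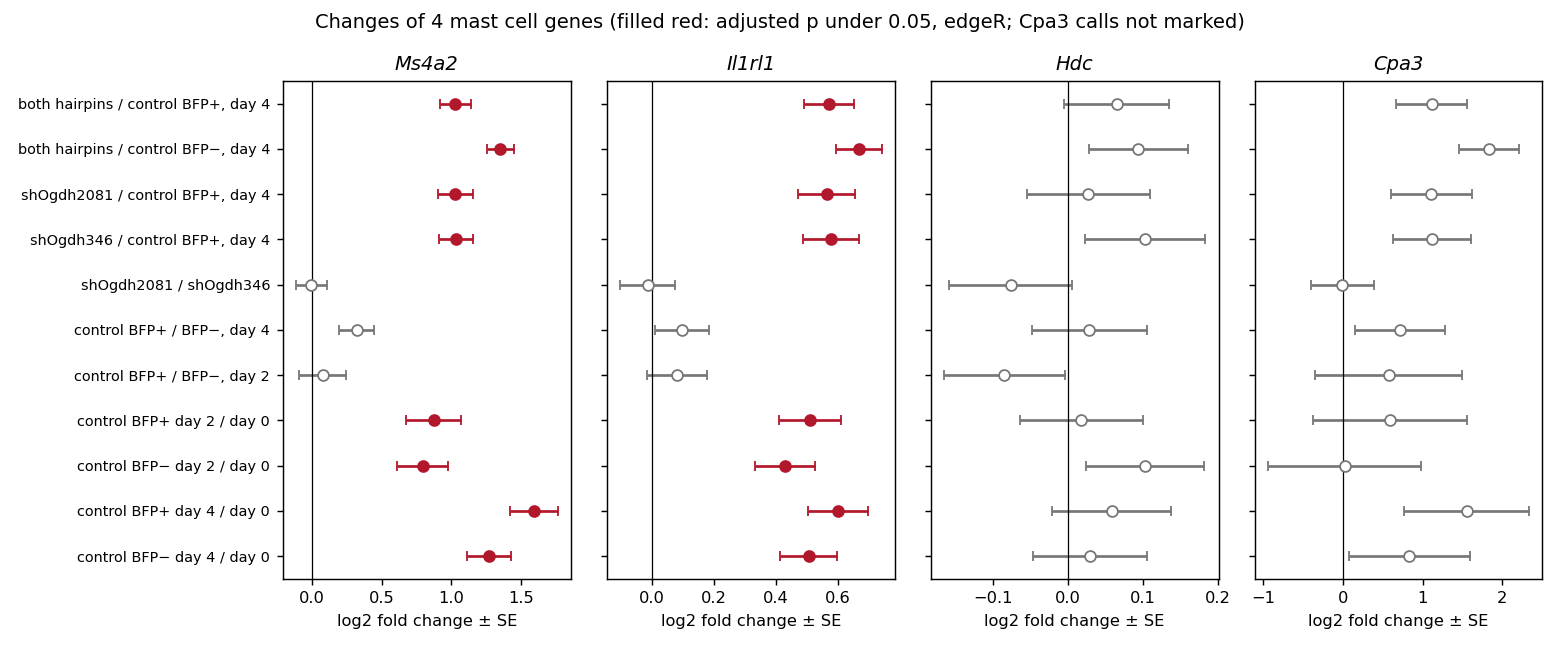
Log2 fold change with its standard error (edgeR) for the 4 tested members in all 11 comparisons, as the group before the slash over the group after it (BFP+ is BFPplus, BFP− is BFPmin); filled red points have an adjusted p under 0.05, calls of Cpa3 are not marked, and each panel has its own x range. Ms4a2 and Il1rl1 are called in every comparison with Ogdh hairpins over control cells and in every comparison with day 0, and Hdc in none.

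Ms4a2 and Il1rl1 were also above day 0 at day 2 and day 4 in cells with the control hairpin. Ogdh itself was lower than at day 0 in these cells, by log2 differences of -0.36 ± 0.09 (adjusted p = 0.00302) and -0.36 ± 0.08 (adjusted p = 0.00202) in BFPmin cells at day 2 and day 4, and of -0.23 ± 0.09 at both times in BFPplus cells, which did not pass (adjusted p = 0.0582 and 0.0827). Its part in the change of the members was not tested. Ms4a2 had 17.4 and 19.9 CPM at day 0, then 30.6 and 40.2 CPM in BFPplus cells at day 2 and 52.9 and 60.6 CPM in BFPplus cells at day 4, and the 3 times did not overlap. Day 2 BFPplus cells were above day 0 by 0.87 ± 0.19 (log2, adjusted p = 7.32e-04) and day 4 BFPplus cells by 1.59 ± 0.17 (adjusted p = 1.20e-10), a fold of 3.02. In BFPmin cells the differences from day 0 were 0.80 ± 0.18 at day 2 (adjusted p = 0.00195) and 1.27 ± 0.16 at day 4 (adjusted p = 2.18e-08). The BFPmin call at day 2 was lost without day 0 replicate 1 (0.69, adjusted p = 0.0727), without day 2 BFPmin replicate 2 (0.64, adjusted p = 0.144) and after thinning to equal depth (0.85, adjusted p = 0.148). Day 4 was not tested against day 2.

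Il1rl1 had 146 and 139 CPM at day 0, 206 and 198 CPM in BFPplus cells at day 2 and 229 and 201 CPM in BFPplus cells at day 4. The day 2 and day 4 libraries overlapped, and all of them were above day 0. Its differences from day 0 were 0.51 ± 0.10 at day 2 (adjusted p = 1.32e-04) and 0.60 ± 0.10 at day 4 (adjusted p = 1.06e-05) in BFPplus cells. In BFPmin cells, with 171 and 208 CPM at day 2 and 185 and 215 CPM at day 4, they were 0.43 ± 0.10 (adjusted p = 0.00156) and 0.50 ± 0.09 (adjusted p = 9.16e-05). The BFPmin call was lost at day 2 without day 0 replicate 2 (0.39, adjusted p = 0.0533) or without day 2 BFPmin replicate 2 (0.26, adjusted p = 0.242), and at day 4 without day 4 BFPmin replicate 2 (0.37, adjusted p = 0.0585).

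Hdc was not called against day 0. Hdc had 307 and 306 CPM at day 0 and its 4 differences lay between 0.02 and 0.10. Cpa3 had 2 and 2 reads at day 0 (0.710 and 0.781 CPM). Its largest fitted difference from day 0 was 1.55 ± 0.79 in BFPplus cells at day 4, on so few reads again a description with no test. In each of the 4 comparisons with day 0, 2 of the 8 members were called higher. Of all tested genes, 9.1% were called higher in BFPplus and 5.33% in BFPmin cells at day 2, and 3.46% in BFPplus and 3.84% in BFPmin cells at day 4. These 4 comparisons share the day 0 libraries, and those of the knockdown share the day 4 BFPplus libraries with them.

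By mean level, Ms4a2 ran in the order shOgdh346, shOgdh2081, control BFPplus at day 4, BFPmin at day 4, BFPplus at day 2, BFPmin at day 2 and day 0. The neighbours that overlapped were the 2 hairpins, and the BFPplus and BFPmin cells of day 2. For Il1rl1 the hairpins stood highest and day 0 lowest, and the other 4 groups overlapped one another. The order for Cpa3 began with the hairpins, which overlapped, and control BFPplus cells at day 4, and each of the 4 groups below overlapped its neighbour. For Hdc, shOgdh346 stood highest at 345 and 339 CPM and the rest ran within 298 and 335 CPM.

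**Figure D3:**
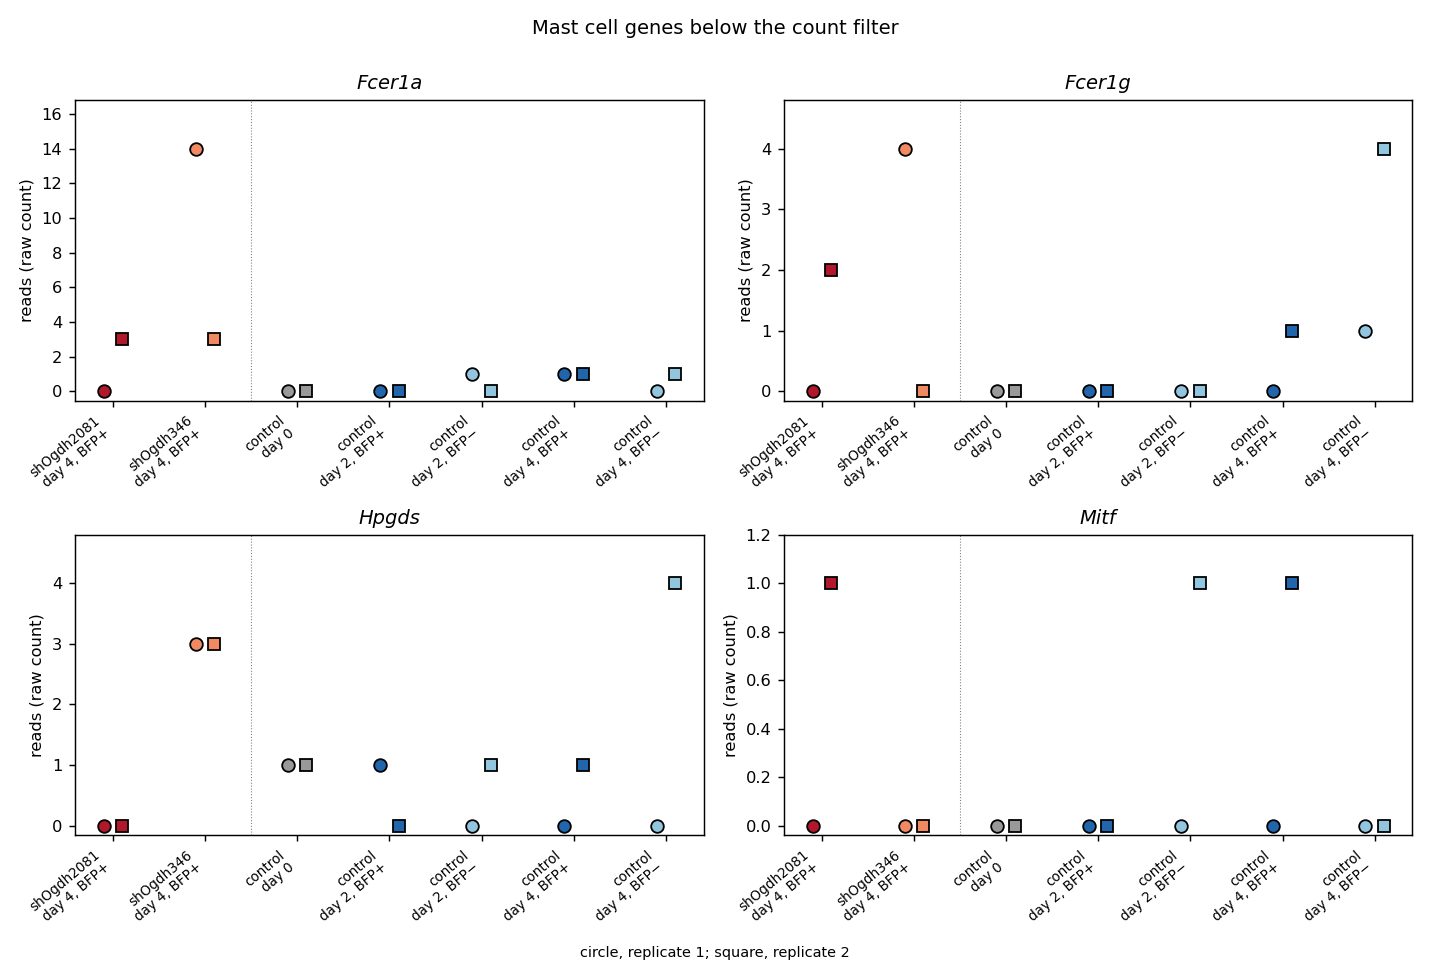
Raw reads per library, not scaled for depth, of the 4 members below the read filter; points are libraries, and each y axis runs from 0. Fcer1a has 14 and 3 reads in the shOgdh346 libraries and at most 3 in any other.

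The other chains of the IgE receptor stayed near 0. Fcer1a had 0 and 3 reads in the shOgdh2081 libraries and 14 and 3 reads in the shOgdh346 libraries, against 1 and 1 reads in control BFPplus cells at day 4. It had no read at day 0 and 2 reads in the other 6 control libraries together. At 17 against 2 reads, shOgdh346 was 6.58-fold above control BFPplus cells (exact 95% counting interval 1.56 to 58.7), and shOgdh2081, at 3 against 2 reads, was 1.44-fold above them (0.165 to 17.2). At 3 against 17 reads, shOgdh2081 over shOgdh346 was 0.218 (0.041 to 0.755). These intervals cover counting error only, and reads without molecular identifiers are not independent molecules. Fitted with no read filter, the difference between the hairpins in Fcer1a did not pass (unadjusted p = 0.0189, adjusted p = 0.92). In the same fit, shOgdh346 against control BFPplus cells did not pass either (log2 fold change 2.61, unadjusted p = 0.00944, adjusted p = 0.141). A count of 0 allowed up to 3.29 CPM in the shallowest library, shOgdh2081 replicate 1, and up to 0.291 CPM in the deepest.

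Fcer1g had 0 and 2 reads in the shOgdh2081 libraries and 4 and 0 reads in the shOgdh346 libraries, against 0 and 1 reads in control BFPplus cells and 1 and 4 reads in BFPmin cells at day 4. No read fell on it at day 0 or day 2. Hpgds had no read in the shOgdh2081 libraries and 3 and 3 reads in the shOgdh346 libraries, against 0 and 1 reads in control BFPplus cells at day 4. Mitf, the master regulator of mast cells and pigment cells, had 3 reads in all, each in a different library. No difference in Fcer1g, Hpgds or Mitf was detectable at this depth. No member shared exonic bases with another annotated gene of GENCODE M21.

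Other mast cell genes were read from lists of granule, surface, signalling and regulator genes. Of 20 granule and mediator genes, 8 were tested, 2 were higher with knockdown (background 7.72%), none was lower (background 8.36%) and 6 did not pass. The median log2 fold change of the 8 was 0.12, against 0.00 over all tested genes. Slc18a2, which loads histamine and serotonin into granules, had 28.3 CPM with knockdown against 15.3 CPM in control BFPplus cells (0.91 ± 0.18, adjusted p = 1.42e-04). Ndst2, which sulfates granule heparin, had 308 CPM with knockdown against 206 CPM in control BFPplus cells (0.57 ± 0.08, adjusted p = 8.52e-07). The granule proteoglycan core Srgn was abundant and did not pass, at 422 CPM with knockdown against 436 CPM in control cells. The tryptases Tpsab1 and Tpsb2 and the chymase Mcpt4 were listed at 0 in all 14 libraries. For these and every other gene given here as listed at 0, whether this is its level or a gap in the counting was not tested. The chymase Cma1 had 114 reads in all.

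Of 10 surface genes 4 were tested, and Cd9 was higher than in control BFPplus cells (1.19 ± 0.27, adjusted p = 8.92e-04, background 7.72%). The tetraspanin Cd9 had 13.3 CPM with knockdown against 5.85 CPM in BFPplus and 11.1 CPM in BFPmin control cells, and against BFPmin cells it did not pass (0.25 ± 0.18, adjusted p = 0.34). Kit, the SCF receptor, did not pass, at 526 CPM with knockdown against 491 CPM in control BFPplus cells. The list's median was 0.02. Mrgprb2, a receptor for basic secretagogues that defines connective tissue mast cells, was listed at 0 in every library. None of 4 tested eicosanoid genes passed (of 9, median -0.07). The phospholipase gene Pla2g4a (-0.38, adjusted p = 0.0606) was called lower against BFPmin cells (-0.36, adjusted p = 0.0262). Per hairpin, against BFPplus cells, it was lower with shOgdh346 (-0.48, adjusted p = 0.0473) and did not pass with shOgdh2081 (-0.28, adjusted p = 0.302).

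Downstream of the IgE receptor, 13 of 19 signalling genes were tested, with a median of -0.14. With knockdown 1 was higher (background 7.72%), 3 were lower (background 8.36%) and 9 did not pass. Gab2, a scaffold that links the receptor to PI3 kinase, fell by 0.64 ± 0.10 on the log2 scale (adjusted p = 2.19e-06) to 61.2 CPM with knockdown, against 96.0 CPM in control BFPplus cells. Btk, a kinase of the same pathway, fell by 0.49 ± 0.09 (adjusted p = 5.01e-05), and the adaptor Grb2 by 0.32 ± 0.08 (adjusted p = 0.00216). The exchange factor Sos1 was higher by 0.30 ± 0.11 (adjusted p = 0.0486), a call that neither hairpin gave alone (adjusted p = 0.0725 for shOgdh2081 and 0.165 for shOgdh346). The kinase Syk was listed at 0 in all libraries. Lyn, its partner kinase, had 77.8 CPM with knockdown against 80.9 CPM in control cells and did not pass.

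All 14 genes listed for IL-33 receptor signalling were tested. Irak1, a kinase recruited by Myd88, fell by 0.37 ± 0.09 (adjusted p = 0.0021, background 8.36% lower), and the other 13 did not pass, with a list median of -0.02. Against BFPmin cells 3 of the 14 were lower (background 10.3%) and 11 did not pass. The 3 were Irak1 (-0.40, adjusted p = 1.52e-04), Nfkb1 (-0.39, adjusted p = 7.36e-04) and Ikbkb (-0.22, adjusted p = 0.0409). Il1rap, the partner chain of Il1rl1, had 39.4 CPM with knockdown against 40.9 CPM in control BFPplus cells (-0.04 ± 0.14, adjusted p = 0.878).

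**Figure D4:**
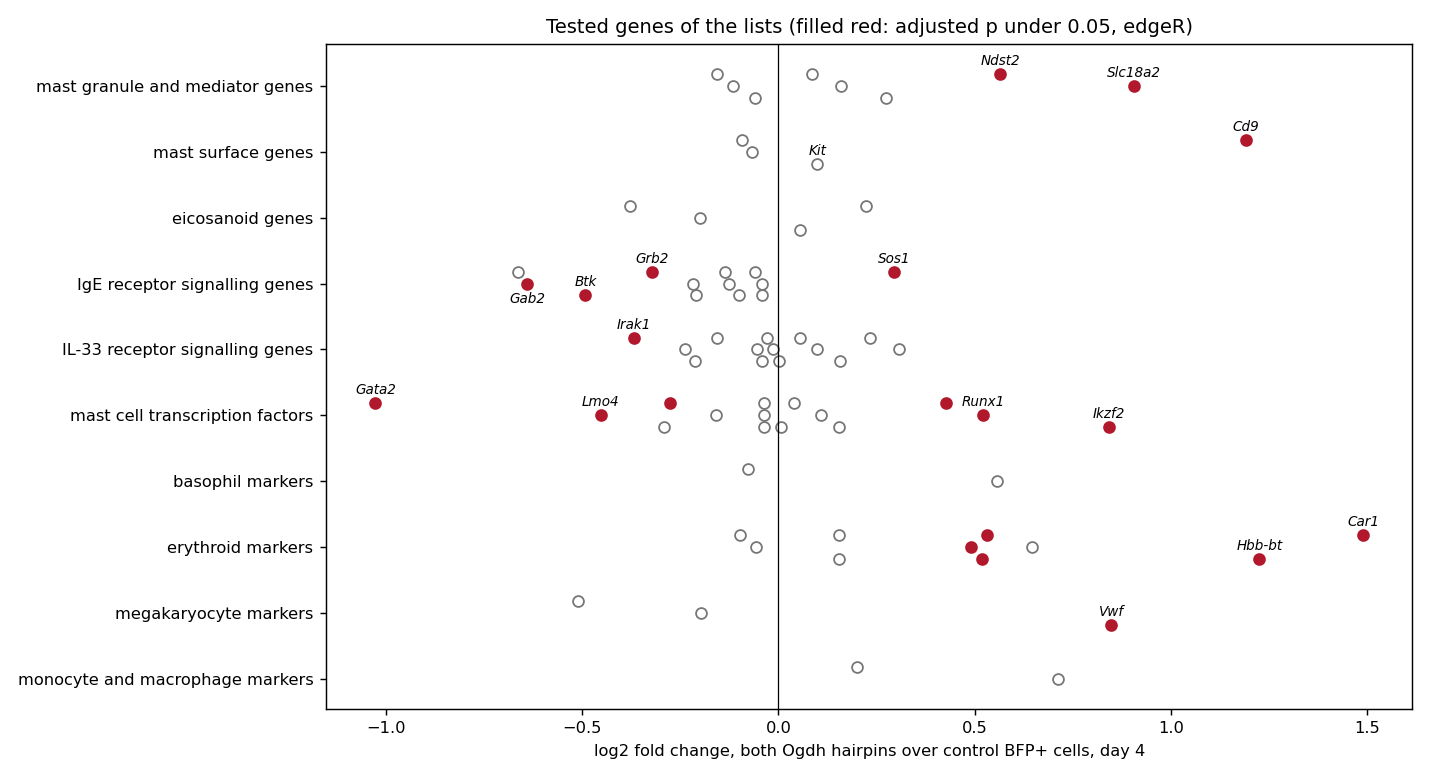
Log2 fold change (x axis) of every tested gene of the lists, both Ogdh hairpins over control BFPplus cells at day 4, 1 row of points per list (y axis; vertical offsets within a row only separate points); filled red points have an adjusted p under 0.05 (edgeR). Gata2 at -1.03 is the lowest point and Car1 at 1.49 the highest.

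Of 20 transcription factors of the mast cell lineage 15 were tested, with a median of -0.04. With knockdown 3 were higher (background 7.72%), 3 were lower (background 8.36%) and 9 did not pass. Gata2, needed to make and keep mast cells, fell by 1.03 ± 0.09 (adjusted p = 3.90e-14) to 79.3 CPM with knockdown, against 163 CPM in control BFPplus cells, so it moved opposite to Ms4a2 and Il1rl1. Gata1 did not pass, at 313 CPM with knockdown against 327 CPM in control cells. Ikzf2 (0.84 ± 0.19, adjusted p = 6.93e-04) and Runx1 (0.52 ± 0.14, adjusted p = 0.00786) were higher. Lmo4 fell by 0.45 ± 0.16 (adjusted p = 0.0426). Lmo4 passed for neither hairpin alone (adjusted p = 0.0826 for shOgdh2081 and 0.135 for shOgdh346) nor against BFPmin cells (-0.13, adjusted p = 0.565). Runx1 passed for shOgdh2081 (adjusted p = 0.00683), not for shOgdh346 (adjusted p = 0.0907) and not against BFPmin cells (0.29, adjusted p = 0.0657). Gata2 and Ikzf2 passed against BFPmin cells as well (-0.94 and 0.47).

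Among markers of other blood cells set beside the members, those of red cells had the highest summed level. Of 10 erythroid markers, 5 were higher with knockdown (background 7.72%) and none lower (median 0.51), led by Car1 (1.49 ± 0.11, adjusted p = 3.80e-16), Hbb-bt (1.23 ± 0.17, adjusted p = 1.20e-07), Hba-a2 (0.53 ± 0.14, adjusted p = 0.00435) and Hbb-bs (0.52 ± 0.10, adjusted p = 2.06e-04); reads of the near-identical globin copies are uncertain. Their summed level was 2266 to 2319 CPM with shOgdh2081 and 2428 to 2510.05 CPM with shOgdh346, against 2035 to 2059 CPM in control BFPplus cells and 2195 to 2314 CPM in control BFPmin cells at day 4. Against BFPmin cells 2 of the 10, Car1 and Hba-a2, were higher (background 10.5%, median 0.08), and Hbb-bt (0.23, adjusted p = 0.172) and Hbb-bs (-0.21, adjusted p = 0.0627) did not pass. Per hairpin, against BFPplus cells, Hbb-bs passed with shOgdh346 (0.75, adjusted p = 2.35e-06) and not with shOgdh2081 (0.29, adjusted p = 0.12). Control BFPplus cells at day 4 themselves had 2 of the 10 lower than BFPmin cells and 0 higher (median -0.10), where 0.0371% of tested genes were lower. No erythroid marker was at 0 in all libraries. Between control BFPplus cells at day 4 and day 0, where Ms4a2 and Il1rl1 also rose, no erythroid marker was higher and 4 were lower (median -0.47), where 3.65% of tested genes were lower. The part of the erythroid genes in the changes of the members was not tested.

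Summed basophil markers were 18.6 to 19.3 CPM with shOgdh2081 and 17.5 to 21.4 CPM with shOgdh346, against 13.99 to 14.4 CPM in control BFPplus cells at day 4, 15.2 to 16.8 CPM in BFPmin cells at day 4 and 11.3 to 14.5 CPM at day 0. Of the 6, Cd200r3 and Il4 were tested and did not pass against BFPplus cells, but Cd200r3 was higher against BFPmin cells (0.95 ± 0.22, adjusted p = 9.98e-04), and its part in the changes of the members was not tested. The basophil proteases Mcpt8 and Prss34 had 1 and 3 reads in all. The 8 eosinophil markers summed to at most 2.27 CPM in any library, with Epx, Ear1 and Ear6 listed at 0. The 9 neutrophil markers summed to at most 1.16 CPM, with Elane and S100a8 listed at 0 in all libraries and Mpo at 1 read. Of 7 monocyte and macrophage markers 2 were tested and did not pass against BFPplus cells, and Ccr2 was higher against BFPmin cells (0.78 ± 0.29, adjusted p = 0.0423). They summed to 7.68 to 12.2 CPM with shOgdh2081 and 10.3 to 11.5 CPM with shOgdh346, against 7.2 to 9.79 CPM in control BFPplus cells and 8.24 to 9.49 CPM in BFPmin cells at day 4, and Ly6c2 and C1qa were listed at 0. The part of these markers in the changes of the members was not tested. Of 7 megakaryocyte markers 3 were tested, with a median of -0.20, and Vwf was higher (0.85 ± 0.18, adjusted p = 5.07e-04, background 7.72%). Gp1ba (-0.51, adjusted p = 0.0699) and Itga2b (-0.20, adjusted p = 0.308) did not pass. With shOgdh346 Gp1ba was called lower (-0.73, adjusted p = 0.0305). The 7 markers summed to 75.3 to 85.5 CPM with the hairpins against 78.3 to 78.9 CPM in control BFPplus cells, and these ranges overlapped. The 6 lymphoid markers summed to at most 0.388 CPM.

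Likeness to the called members was measured over the 14 libraries as the root mean square difference of centred log2 CPM, among 7483 genes with a mean of at least 20 CPM. Rec8, a meiotic cohesin subunit (0.381), Fuca2, a fucosidase (0.384), and the unannotated Gm36948 (0.310) were closest to Ms4a2, whose own spread about its mean was 0.912. Rec8 had 152 CPM with shOgdh2081 and 165 CPM with shOgdh346, against 76.0 CPM in control BFPplus cells at day 4 and 45.03 CPM at day 0. Closest to Il1rl1, whose own spread was 0.403, were the zinc finger gene Gzf1 (0.120), the phospholipid flippase Atp8a1 (0.136) and Suco (0.137). Among the tested members themselves, the smallest difference was 0.374, between Il1rl1 and Hdc, although Hdc was called in no comparison. Ms4a2 and Cpa3 differed by 0.378, Ms4a2 and Il1rl1 by 0.535, and Ms4a2 and Hdc by 0.879. The measure also depends on how large the changes of each gene are, so a small value need not mean a shared pattern. Likeness describes these libraries, which share depth and groups, and carries no test.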

How the data were processed

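Raw counts per gene of 14 libraries were used as the authors deposited them. Per the labels' protocols, polyA RNA was made into TruSeq libraries and read single-end, trimmed with Trimmomatic, aligned with STAR and counted with HTSeq, and a human build is named. A mouse build and the tools featureCounts 1.6.3, STAR 2.6.1a, Trimmomatic 0.36 and FastQC 0.11.5 are listed in the submitters' processing notes. Of the 53274 gene IDs that the table shares with GENCODE M21, 51298 had the same coordinates, all 8 members included. Settings for strand and multi-mapping reads were not given in the sources used here. The deposited table also gives a transcript length per gene, in bases (a value of another kind than a count), which was used for RPKM. For all 8 members it equals the bases of all annotated exons of the gene in GENCODE M21 together. It can exceed the length of any single transcript, and the order of genes by RPKM depends on it.

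After filterByExpr, run on all 7 groups, libraries were scaled by TMM and fitted in 1 group-means model over all 14 libraries with edgeR 4.0.16 in R 4.3.3 (quasi-likelihood test, Benjamini-Hochberg adjustment over 10791 genes, threshold 0.05). The fit had 7 residual degrees of freedom and a median of 57.6 prior degrees of freedom, which are borrowed across genes. Tests and intervals used both. The common biological coefficient of variation was 5.04%. No replicate pair held the same counts in duplicate (chi-square per degree of freedom 1.16 to 2.71). Because 1 library sequenced again would give a value near 1, this check does not show that replicates were separate cultures. Knockdown is the mean of both Ogdh hairpins, so called genes may differ in 1 hairpin more than in the other. CPM uses reads in tested genes, RPKM divides it by length, and likeness used log2(CPM + 0.5). Counting intervals are exact at 95%, and the limit that a count of 0 allows is 3 counts. Alternatives were RLE scaling, no filter, DESeq2 1.42.0, a replicate block, a library-set term, thinning to equal depth, a length trend and leaving out libraries.

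The members, the 13 lists with 145 genes and the tests were chosen with earlier results of these data known. The genes named were the 8 members, Ogdh, up to 4 called genes of each list by size of change, and the 3 genes most like each called member; other genes named were chosen after their values were seen. Another erythroid marker is not reported here.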

Additional observations from a re-analysis of the deposited data

How the results depend on the processing

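For both hairpins against control BFPplus cells at day 4, Ms4a2 (0.93 to 1.13) and Il1rl1 (0.49 to 0.69) kept their calls under all 14 alternatives, and no result that had passed changed its direction. Of the control cells, BFPmin at day 2 against day 0 had 2 called members, 1 with libraries thinned and 0 to 2 with a library left out, and BFPmin at day 4 against day 0 had 2, and 1 to 2 with a library left out. The cause was not tested. Over all genes, the knockdown calls numbered 1735, against 708 with DESeq2, 736 thinned, 469 without control BFPplus replicate 1 and 912 without control BFPplus replicate 2. Against BFPmin cells they numbered 2243 (680 to 2388), with shOgdh2081 1247 (344 to 1245), with shOgdh346 1206 (374 to 1305) and between the hairpins 9 (0 to 30). BFPplus against BFPmin cells gave 8 (3 to 16) at day 4 and 672 (222 to 723) at day 2. Against day 0 the calls were 1928 (784 to 2018) in BFPplus and 1112 (241 to 1219) in BFPmin cells at day 2, and 767 (181 to 883) in BFPplus and 866 (182 to 1026) in BFPmin cells at day 4. Thinning and leaving out libraries remove reads or samples.

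Values that changed sign had not passed the test. Between the hairpins, Cpa3 was 0.27 with DESeq2, 0.19 with the replicate block, 0.042 with the length trend and -0.27 to 0.83 with a library left out. Ms4a2 was 0.077 thinned, 0.017 with the length trend, 0.014 without the shallower library of each hairpin and -0.14 to 0.11 with a library left out. Hdc was 0.029 thinned, and Il1rl1 -0.073 to 0.087 with a library left out. Against control BFPplus cells, Hdc was -0.0019 thinned for shOgdh346, and for shOgdh2081 -0.0064 with no filter and -0.0041 with the length trend. For BFPplus against BFPmin cells at day 4, Cpa3 was -1.21 thinned, and with a library left out Il1rl1 was -0.016 to 0.22 and Hdc -0.055 to 0.098. At day 2, with a library left out, Cpa3 was -0.14 to 0.85, Ms4a2 -0.067 to 0.32 and Il1rl1 -0.032 to 0.26. Against day 0, Cpa3 was -0.048 with the length trend and -0.088 to 0.19 with a library left out in BFPmin cells at day 2, and -0.12 to 0.87 in BFPplus cells at day 2. Hdc was -0.033 thinned in BFPplus cells at day 2, and in BFPmin cells at day 4 -0.11 thinned and -0.050 to 0.10 with a library left out.

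Deviations of same-numbered libraries correlated by -0.21 to 0.28 over 21 pairs of groups, 4 of them above 0.1. These values do not settle whether replicate numbers pair the libraries. By library number there were 2 sets, up to 15 and from 16. Replicate numbers followed the sets except in shOgdh346, where they were crossed. With the replicate block the knockdown calls rose to 1850, and to 2388 against BFPmin cells, but with shOgdh2081 they were 1245 against 1247. The block changed no call of a member (Ms4a2 1.02, Il1rl1 0.57). With the library-set term the knockdown calls were 1630. With no filter, Fcer1a was called between both hairpins and BFPmin cells (3.44, adjusted p = 0.041) and not against BFPplus cells (1.53, adjusted p = 0.683); a fitted value on so few reads is no bound. Where a gene had under 30 reads in every library, as Cpa3 did, depth limits what could be called.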
